A study of Mus musculus with 8 samples.

Results

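The genes described here are 9 transport genes of the distal nephron, the stretch of the kidney tubule from the thick ascending limb to the collecting duct: Slc12a1, Slc12a3, Umod, Kcnj1, Bsnd, Scnn1a, Scnn1b, Scnn1g and Trpm6. They were taken by symbol from the 52195 rows of a gene expression table, and the rule uses no measured value, although earlier results of these data were known when they were chosen. Bulk RNA-seq, in which the messenger RNA of a whole piece of tissue is sequenced together, covered small intestine, liver, lung and kidney. The animals, for which no treatment is named, were male mice of the C57BL/6J strain (C57BL/6 in the sample labels), 6 to 10 weeks old, and each tissue had 2 libraries from separate mice. All 4 groups therefore share strain, sex and age range, and differ in the organ. By the paper's methods all 4 tissues were taken from each mouse, so libraries of different tissues share animals. Which libraries share a mouse is not stated, and the main tests below treat all libraries as independent. With 2 libraries a tissue, every p-value below measures the spread between these samples only. A whole organ mixes many cell types, so fewer cells of a type and less RNA per cell cannot be told apart in any of the values.

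The distal nephron recovers the salt that the proximal tubule leaves behind. In the thick ascending limb, sodium, potassium and chloride enter the cell together through the cotransporter encoded by Slc12a1, potassium returns to the lumen through the channel encoded by Kcnj1, and barttin, the product of Bsnd, serves the exit of chloride on the blood side. Cells of the same segment secrete uromodulin, the product of Umod and a major protein of the tubular fluid. The distal convoluted tubule uses the thiazide-sensitive sodium chloride cotransporter, encoded by Slc12a3, and the magnesium channel encoded by Trpm6. In the last segments the epithelial sodium channel, built of an alpha (Scnn1a), a beta (Scnn1b) and a gamma subunit (Scnn1g), takes up sodium under the control of aldosterone. Lung epithelium uses the same channel to clear fluid from the airspaces.

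Positions are those of GENCODE M21 on mouse build GRCm38, in which each member is a protein-coding gene. Slc12a1 lies at chr2:125152505-125230002 on the plus strand, Slc12a3 at chr8:94329201-94366214 on the plus strand, Umod at chr7:119462711-119479282 on the minus strand and Kcnj1 at chr9:32372493-32399197 on the plus strand. Bsnd lies at chr4:106483456-106492283 on the minus strand, Scnn1a at chr6:125320659-125344943 on the plus strand and Trpm6 at chr19:18749983-18892511 on the plus strand. Scnn1g (chr7:121734479-121768475) and Scnn1b (chr7:121865038-121918514) are neighbours on the plus strand, 96.6 kb apart, with 1 annotated gene, Gm44740, between them. Umod is the only member that shares exon bases with another gene. The shared part is 19.5% of its exon length, on the strand opposite to Gm44588, which was listed at 0 in all 8 libraries.

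The starts of 5 members are shown because they represent the groups into which the values below fall: Umod, Slc12a1 and Slc12a3, which were high in kidney alone, and the adjoining Scnn1b and Scnn1g, which were high in kidney and lung. The sequences are from RefSeq (build GRCm38.p6) and run 5′ to 3′ on the strand of the gene over the 250 bases before the RefSeq start, shortened where the GENCODE gene begins earlier. Capitals mark every match, on either strand, to one of 3 motifs: AAGGTCA, a site of the estrogen-related receptors; TGTTCT, a core site of the steroid receptors; and TATAAA, the TATA box.
Umod, chr7:119479283-119479512, minus strand: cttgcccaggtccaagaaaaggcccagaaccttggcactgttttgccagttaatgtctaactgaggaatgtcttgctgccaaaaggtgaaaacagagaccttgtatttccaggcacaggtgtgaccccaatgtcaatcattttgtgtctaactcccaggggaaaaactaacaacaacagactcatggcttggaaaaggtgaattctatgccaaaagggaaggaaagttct
Slc12a1, chr2:125152350-125152504, plus strand: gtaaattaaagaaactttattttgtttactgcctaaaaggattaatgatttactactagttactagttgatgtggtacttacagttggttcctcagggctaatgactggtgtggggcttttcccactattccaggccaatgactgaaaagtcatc
Slc12a3, chr8:94328958-94329200, plus strand: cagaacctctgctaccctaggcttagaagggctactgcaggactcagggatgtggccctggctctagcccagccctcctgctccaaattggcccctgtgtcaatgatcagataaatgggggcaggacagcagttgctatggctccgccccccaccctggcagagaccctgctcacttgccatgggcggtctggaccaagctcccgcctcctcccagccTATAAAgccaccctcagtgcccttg
Scnn1b, chr7:121864788-121865037, plus strand: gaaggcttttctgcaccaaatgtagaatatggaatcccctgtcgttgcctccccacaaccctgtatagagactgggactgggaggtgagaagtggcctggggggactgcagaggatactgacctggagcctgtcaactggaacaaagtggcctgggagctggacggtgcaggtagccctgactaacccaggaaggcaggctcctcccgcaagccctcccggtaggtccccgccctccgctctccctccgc
Scnn1g, chr7:121734229-121734478, plus strand: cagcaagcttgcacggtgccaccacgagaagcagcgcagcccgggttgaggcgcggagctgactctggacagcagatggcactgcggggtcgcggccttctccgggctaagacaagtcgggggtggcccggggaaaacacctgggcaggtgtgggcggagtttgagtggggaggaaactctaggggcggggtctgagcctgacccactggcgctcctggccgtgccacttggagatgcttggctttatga

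RefSeq entries were found for 7 of the 9 members, and none was used for Bsnd and Scnn1a. TATAAA was found in Slc12a3 alone among them, 32 bases before the RefSeq start, and in 12.4% of the 32851 promoter windows of 250 bases in the mouse table. The windows of Slc12a1, Umod and Slc12a3 were shortened to 155, 230 and 243 bases, so the lengths compared are not all equal. TGTTCT was found on the reverse strand in Kcnj1 alone, at 190 and 14 bases before the RefSeq start, which lies 21492 bases inside the GENCODE gene, against 16.1% of all windows, and AAGGTCA in none of the 7, against 4.08%. These motifs do not overlap each other in the windows shown. The share of G and C was 65.2% in Scnn1g, 60.8% in Scnn1b and 61.2% in Slc12a3, and 45.2% in Umod, 44.8% in Kcnj1 and 39.6% in Slc12a1, around a median of 52.4% over all windows. Trpm6 was between them at 54.4%. The kidney-high members thus stood on both sides of the median.

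Levels are given as FPKM, fragments scaled by exon length and library size. Differences that moved with gene length remained between the kidney libraries, as given below, so comparisons of genes of different length are approximate. The reads counted on genes were between 9164187 and 21444675 per library, with the kidney libraries the deepest. Counted by both libraries of a tissue lying above the other 6, all 4 alveolar type 1 cell, all 4 ciliated cell and all 3 club cell markers were highest in lung, all 4 hepatocyte markers in liver and all 4 enterocyte markers in small intestine. Highest in kidney were all 4 intercalated cell, 5 of 7 proximal tubule, 3 of 4 podocyte and 2 of 5 renal medulla markers. In lung 2 of 3 alveolar type 2 cell markers were highest. The share of all genes highest in a tissue by this rule is not given here. The 7 proximal tubule markers summed to between 1628 and 2014 FPKM in kidney, with Slc34a1 the highest by mean, and the 4 markers of intercalated cells, the acid-secreting cells of the collecting duct, to between 42.9 and 60.9 FPKM. Of 4 adrenal cortex markers, 3 were listed at 0 in both kidney libraries.

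Umod was the most abundant member. It read 753 and 554 FPKM in kidney, 2.74 and 0.815 in lung, 0.773 and 0.288 in small intestine, then 1.03 and 1.75 in liver, each pair in the order of replicate 1 and 2. The lower kidney value was 202 times the highest value elsewhere. Slc12a1 read 139.5 and 55.5 FPKM in kidney, 0.267 and 0.0698 in lung, 0.130 and 0.0153 in small intestine, then 0.189 and 0.151 in liver. Both kidney libraries stood above the other 6, the lower of them by 208 times, although they differed 2.51-fold from each other. Slc12a3 read 84.0 and 17.7 FPKM in kidney, 0.267 and 0.0579 in lung, 0.0480 and 0.0238 in small intestine, then 0.0687 and 0.139 in liver. The kidney libraries differed 4.74-fold, the widest gap between kidney replicates of any member, and the lower was still 66.3 times the highest other library.

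Kcnj1, the potassium return path, read 53.3 and 31.9 FPKM in kidney, 0.215 and 0.0241 in lung, 0.0641 and 0.0530 in small intestine, then 0.0982 and 0.232 in liver. No other library held more than 8 of its reads, against 3807 and 1841 reads in kidney. Bsnd, the chloride channel subunit, read 12.0 and 9.45 FPKM in kidney, 0 and 0.0584 in lung, 0.194 and 0 in small intestine, and was listed at 0 in both liver libraries. Its highest value outside kidney rested on 5 reads, and a count of 3 reads, the limit of detection taken here, corresponds to between 0.0876 and 0.119 FPKM in the 6 other libraries for a gene of its length. Intervals from counting are not given, because the reads carry no molecular identifiers that were used and the floor covers counting error only.

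The sodium channel subunits were present in kidney and higher in lung. Scnn1a read 22.6 and 11.5 FPKM in kidney, 65.8 and 64.3 in lung, 2.66 and 2.52 in small intestine, then 5.81 and 4.43 in liver. The 4 tissues did not overlap. Scnn1b read 13.3 and 7.81 FPKM in kidney and 35.7 and 40.8 in lung, but 0.0406 and 0 in small intestine, then 0 and 0.0368 in liver, where each value above 0 was a single read. Scnn1g read 10.5 and 5.72 FPKM in kidney, 41.6 and 47.1 in lung, 0.0714 and 0.0591 in small intestine, then 0.109 and 0.0324 in liver, the last 4 values resting on 1 to 3 reads each. Beta and gamma subunits were thus at or below the limit of 3 reads in liver and small intestine, while the alpha subunit had between 103 and 220 reads there. Trpm6 was the lowest member in kidney, at 2.21 and 0.648 FPKM, and read 3.53 and 4.06 in lung, 0.0821 and 0.231 in small intestine, then 0 and 0.0149 in liver. Its libraries did not overlap between tissues, and its kidney values differed 3.41-fold.

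**Figure D1:**
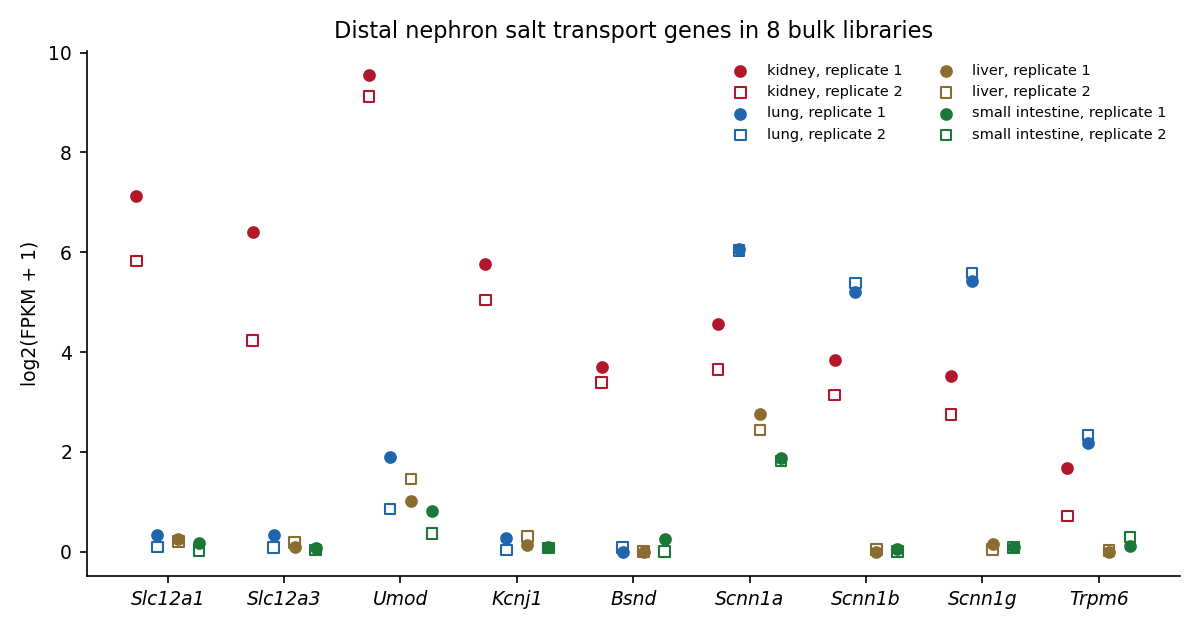
Level of each of the 9 genes as log2(FPKM + 1) in the 8 libraries, 2 per tissue; filled circles are replicate 1 and open squares replicate 2. Kidney stands alone for the first 5 genes, with Umod highest at 753 and 554 FPKM, while lung lies above kidney for the 3 sodium channel subunits and Trpm6.

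The first comparison asks which members are higher in kidney than in the other organs. Of the 9 members, 7 passed as higher in kidney relative to the averaged remaining 3 tissues and none as lower, where 8.65% of the 16328 genes tested were called higher and 16.1% lower. A call needed an adjusted p below 0.05 in limma and a difference over 1 on the log2(FPKM + 1) scale. The pseudocount of 1 makes differences of low genes smaller than their folds. Among the genes of the thick ascending limb, Umod was higher by 8.26 (SE 0.30, adjusted p = 1.05e-06), Slc12a1 by 6.30 (SE 0.31, adjusted p = 4.68e-06), Kcnj1 by 5.25 (SE 0.20, adjusted p = 1.46e-06) and Bsnd by 3.49 (SE 0.13, adjusted p = 1.23e-06). Slc12a3 of the distal convoluted tubule was higher by 5.18 (SE 0.48, adjusted p = 8.79e-05). For these 5 the 2 kidney libraries were above all 6 others. That gives p = 0.0357 in a two-sided exact permutation test of single genes, the smallest value that 2 of 8 libraries allow. The share of all genes separated in this way is not given here.

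Scnn1b and Scnn1g passed as well, with differences of 1.71 (SE 0.20, adjusted p = 0.000263) and 1.24 (SE 0.21, adjusted p = 0.00177), although the lung was above the kidney for both. The call of Scnn1g rested on kidney replicate 1: without that library its difference was 0.85, under the threshold. Scnn1a did not pass, at 0.61 with a 95% interval of 0.06 to 1.15 (adjusted p = 0.0572), nor did Trpm6, at 0.38 with an interval of -0.16 to 0.92 (adjusted p = 0.200). Scnn1a was 0.15 without kidney replicate 1 and was called at 1.07 without kidney replicate 2. Of the members called, Slc12a1, Slc12a3, Kcnj1 and Bsnd reached an FPKM of 1 in kidney libraries only and so entered the test through the tissue in which they were high. The same 7 members were called without any filter. The median of all genes in this contrast was -0.34, and 35.0% of all calls were higher in kidney. That share was 49.2% after median-of-ratios scaling and 58.4% when each library was scaled to the same sum without mitochondrial genes.

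The comparison of lung with liver and small intestine concerns the channel that lung epithelium shares with the kidney. Lung was called higher for 4 of the 9 members and lower for none, against 41.6% and 8.27% of all genes tested, so the count itself is close to the background in the values as deposited. The sizes were Scnn1g 5.41 (SE 0.22, adjusted p = 1.06e-06), Scnn1b 5.26 (SE 0.21, adjusted p = 9.36e-07), Scnn1a 3.82 (SE 0.25, adjusted p = 6.28e-06) and Trpm6 2.15 (SE 0.25, adjusted p = 0.000122), where the median of all genes was 0.84. In all 4 the lung libraries were above the 4 others, a separation whose share over all genes is not given. The exact permutation test of single genes cannot go below 0.0667 with 2 of 6 libraries. The 5 kidney-high members lay between -0.02 and 0.46 and were not called. Of all calls in this contrast 83.4% were higher in lung, a share that fell to 47.6% with median-of-ratios scaling and 79.6% with equal sums without mitochondrial genes. The 4 members stayed called under both scalings, where 15.5% and 34.1% of all genes were called higher in lung. Trpm6 reached an FPKM of 1 only in lung and in kidney replicate 1. It thus entered the test through lung, the tissue in which it was high. Without any filter 4 members were called as well.

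Between kidney and lung directly, 5 members were called higher in kidney, where 8.87% of genes were, and 4 lower, where 41.4% of genes were. The 5 were Umod (7.95), Slc12a1 (6.26), Kcnj1 (5.24), Slc12a3 (5.11) and Bsnd (3.50). The 4 lower in kidney were Scnn1g at -2.37 (SE 0.26, adjusted p = 0.000112), Scnn1a at -1.94 (SE 0.29, adjusted p = 0.000567), Scnn1b at -1.80 (SE 0.24, adjusted p = 0.000360) and Trpm6 at -1.06 (SE 0.28, adjusted p = 0.0109). The lung mean was 5.48 times the kidney mean for Scnn1g, 3.81 times for Scnn1a, 3.62 times for Scnn1b and 2.66 times for Trpm6. The ratio of Trpm6 rests on kidney libraries that differed 3.41-fold. Most genes lay on the same side, with a median of all genes of -0.81 and 17.6% of calls higher in kidney. After median-of-ratios scaling, where that median was -0.0042 and the share 50.1%, the differences were -1.31 for Scnn1g, -0.86 for Scnn1a, -0.75 for Scnn1b and -0.31 for Trpm6. Scnn1g alone stayed called, where 17.8% of all genes were called lower in kidney. With equal sums without mitochondrial genes the share was 35.9% and 3 of the 4 stayed called, where 24.8% of all genes were called lower in kidney. No single gene can be separated by permutation here, where 2 against 2 libraries allow no p below 0.333.

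**Figure D2:**
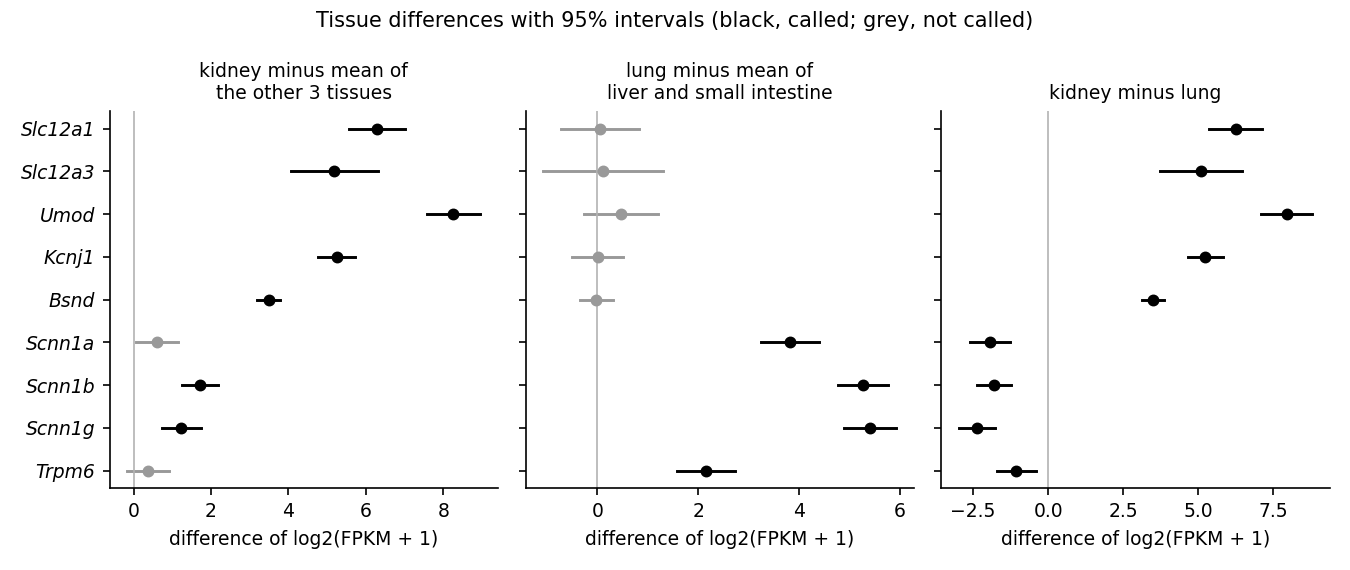
Differences of log2(FPKM + 1) for the 9 genes in 3 tissue contrasts, as points with 95% intervals from limma; black marks genes called, with an adjusted p below 0.05 and a difference over 1, and grey the others. The first 5 genes are on the right in the kidney contrasts and near 0 in the lung contrast, and the sodium channel subunits and Trpm6 are on the left of 0 between kidney and lung.

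Ordered by mean FPKM, the 9 members gave 27 pairs of neighbouring tissues, of which 12 were told apart by the same rule and 15 were not. Of all genes, 16.2% were called higher and 6.9% lower in kidney against liver, and 10.7% higher and 18.8% lower in kidney against small intestine. The shares were 55.5% and 7.21% for lung against liver, 30.6% and 10.1% for lung against small intestine, and 7.89% and 28.3% for liver against small intestine. The step from kidney to the next tissue was told apart for Umod, Slc12a1, Slc12a3, Kcnj1 and Bsnd, and no step among their other 3 tissues was in the values as deposited. For Umod, the most abundant of them, liver and small intestine differed by 0.64 with a 95% interval of -0.21 to 1.496, and under median-of-ratios scaling this step was called at 1.16. The order for the subunits was lung, kidney, then the other tissues, with both upper steps told apart. Under median-of-ratios scaling the steps from lung to kidney were not called for Scnn1a and Scnn1b. Scnn1a in liver was 0.76 above small intestine, with an interval of 0.09 to 1.43 and an adjusted p of 0.0530, and the same scaling called this step at 1.4997. Liver held the bile duct markers at a sum of 3.76 to 5.52 FPKM over 4 genes, and small intestine the same genes at 906 to 1087 FPKM. Their part in the Scnn1a level was not tested. For Trpm6 the step from lung to kidney was told apart, while that from kidney to small intestine was 0.99 with an interval of 0.33 to 1.66 and fell just under the threshold of 1. Its calls changed most often among the members: the step from lung to kidney was lost in 4 alternatives and that from kidney to small intestine gained in 5, while limma-voom also called small intestine above liver, at 3.66, with 0 and 1.2 reads in the liver libraries.

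Ratios between the subunits were compared within the libraries of kidney and lung, which had all 3. The ratio of Scnn1b to Scnn1a was 0.587 and 0.677 in the kidney libraries and 0.542 and 0.634 in lung, so the ranges overlapped. The ratio of Scnn1g to Scnn1a was 0.462 and 0.496 in kidney and 0.633 and 0.732 in lung. Scnn1g to Scnn1b was 0.788 and 0.732 in kidney and 1.17 and 1.15 in lung. Gamma was therefore the least abundant subunit in both kidney libraries, and beta in both lung libraries. These ratios are taken within a library and do not depend on the scaling between libraries. The difference in ratio was not tested, and an exact permutation of 2 against 2 libraries allows no p below 0.333. The values rest on at least 296 reads a subunit. The summed level of the 3 subunits was 46.4 and 25.1 FPKM in kidney, 143 and 152 in lung, 2.77 and 2.58 in small intestine, then 5.92 and 4.50 in liver.

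**Figure D3:**
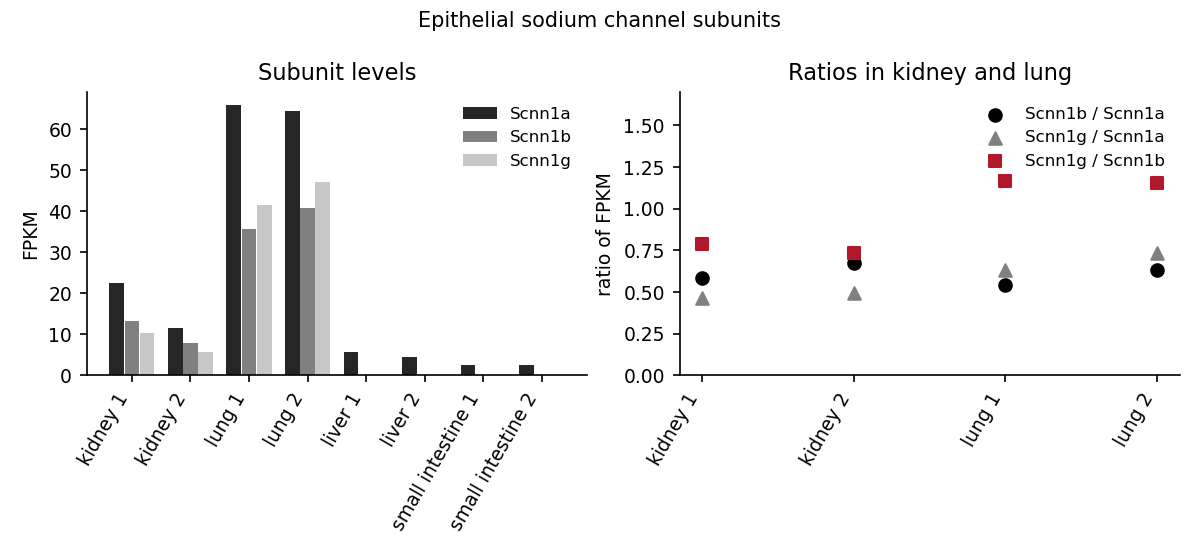
Left, FPKM of the alpha (Scnn1a), beta (Scnn1b) and gamma (Scnn1g) subunit genes in each of the 8 libraries; right, ratios of FPKM within the kidney and lung libraries. Scnn1g to Scnn1b lies at 0.788 and 0.732 in kidney and at 1.17 and 1.15 in lung, and in liver and small intestine the bars of the alpha subunit are the only ones tall enough to see.

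Partners and regulators of the members were read from 10 lists of 92 genes in all, of which 83 were tested. In kidney against the other tissues 38 were higher, 5 were lower and 40 were not called, beside 8.65%, 16.1% and 75.3% of all genes tested, and the counts of each list below stand against the same shares. The thick ascending limb partners had 8 of 9 tested genes higher and none lower, with a median difference of 3.46 against -0.34 for all genes. They were led by Egf at 5.83, which encodes the precursor of epidermal growth factor, and Cldn10 at 4.93, a tight junction protein of the sodium path between cells. Of 10 distal convoluted tubule and calcium genes tested, 8 were higher, with a median of 2.42. Some of these, Calb1 and Kcnj16 among them, passed the filter through kidney alone. Fxyd2, a small subunit of the sodium pump, was higher by 7.36, the potassium channel gene Kcnj16 by 6.12 and the calcium-binding protein genes Calb1 by 5.79 and S100g by 3.57. S100g was also abundant in small intestine, at 363 and 107 FPKM.

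In the kinase pathway that phosphorylates the SLC12 cotransporters, 2 of 10 genes tested were higher, none was lower and 8 were not called, where 75.3% of all genes were not called. The 2 were Wnk4, a kinase of the pathway, at 2.67, and Klhl3, the adaptor that marks Wnk4 for degradation, at 1.30. Wnk4 read 18.4 and 8.22 FPKM in kidney and at most 1.90 elsewhere. Klhl3 read 4.03 and 1.34 FPKM in kidney and lost its call without kidney replicate 1, at 0.74. The 6 other SLC12 genes tested gave no call in either direction, with a median of -0.49, so that Slc12a1 and Slc12a3 were the only ones of the 8 SLC12 genes tested here that were called in kidney.

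Of 12 genes in the aldosterone pathway and its control of the sodium channel, 3 were higher, 1 was lower and the median was 0.07. Hsd11b2, the enzyme that inactivates glucocorticoids in aldosterone target cells, was higher by 5.27. It read 99.6 and 63.4 FPKM in kidney, 1.002 and 0.875 in lung, 3.60 and 3.36 in small intestine, then 0.0593 and 0.0526 in liver. Prss8, a protease that activates the channel, was higher by 3.71 in kidney and was also called higher in lung against liver and small intestine, by 2.72. It read 131 and 126 FPKM in kidney and 34.5 and 33.2 in lung. Usp2, a deubiquitinating enzyme, was higher by 2.60. Tsc22d3, a glucocorticoid-induced gene, was lower by a difference of -1.70, at 26.8 and 12.3 FPKM in kidney and 174 and 165 in lung. The receptor itself, Nr3c2, was not called at -0.38, and read 1.09 and 0.473 FPKM in kidney and 2.54 and 2.65 in small intestine.

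Water and magnesium handling gave the following. Among 6 principal cell genes tested, Aqp2 (6.31) and Aqp3 (3.55), water channels of the collecting duct, and Fxyd4 (3.54), a regulator of the sodium pump, were higher and the other 3 were not called. Of 10 magnesium genes 4 were higher, among them Egf, Pcbd1 (2.58) and Cnnm2 (1.07). The call of Cnnm2 was lost without kidney replicate 1 and without small intestine replicate 2. Trpm7, the nearest relative of Trpm6 on the list, was not called at 0.39 and read 10.5 and 2.97 FPKM in kidney, so both channel genes had the higher value in kidney replicate 1. Without that library the difference of Trpm7 was -0.38, and without kidney replicate 2 it was called at 1.16.

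The sodium pump drives sodium transport from the blood side. Of its 6 subunit genes tested, 3 were higher in kidney, among them Fxyd2 and Atp1b1 (2.83), and 1 was lower. The transcription factor list had 9 of 11 genes higher and none lower, with a median of 2.03. Some of these, Emx1 among them, passed the filter through kidney alone. Emx1 was higher by 3.54, Pax8 by 2.32 and Tfcp2l1 by 2.27. Among 8 fluid transport genes of lung and gut, the bicarbonate cotransporter gene Slc4a4 (3.47) and the sodium-proton exchanger gene Slc9a3 (2.12) were higher in kidney. The water channel gene Aqp5 (-2.43), the gut chloride exchanger gene Slc26a3 (-1.62) and the chloride channel gene Ano1 (-1.20) were lower. Ano1 lost its call under median-of-ratios scaling, at -0.88, and with equal sums without mitochondrial genes. Of the list genes named here as higher or lower, none changed direction under the alternatives run.

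Between the 2 kidney libraries every member was higher in replicate 1, as were 11901 of the 16328 genes tested. The counts of the lists below stand beside that share. The difference of log2(FPKM + 1) was 2.18 for Slc12a3, 1.31 for Slc12a1, 0.96 for Trpm6 and 0.92 for Scnn1a. It was 0.77 for Scnn1g, 0.72 for Kcnj1, 0.70 for Scnn1b, 0.44 for Umod and 0.32 for Bsnd. The median of the members was 0.77, where that of all genes tested was 0.22. Past a difference of 1 were 2 of 9 members, and of all genes 4.91% in the same direction and 0.925% in the other. There is 1 library a side, so the difference has no replicate check. Under median-of-ratios scaling 1 member, Slc12a3 at 1.69, was past 1, and Umod (-0.08) and Bsnd (-0.16) turned to the other side. Among lists of kidney cells the median was 0.60 over 7 proximal tubule markers, of which 6 were higher in replicate 1, 0.72 over 4 intercalated cell markers, all higher, and 0.81 over 5 renal medulla markers, of which 3 were higher. Both podocyte markers tested were higher, with a median of 0.97. Among the lists of partners it was 0.66 over 10 distal convoluted tubule and calcium partners, of which 7 were higher, 0.65 over 12 aldosterone pathway genes and 0.52 over 10 WNK pathway genes, all higher. Over the 9 thick ascending limb partners it was 0.26, with 6 higher. Of 6 principal cell genes 5 were higher in replicate 1, with a median of 0.27, and Aqp2 was higher in replicate 2, at 80.1 and 120 FPKM. The part of these cell types in the differences was not tested.

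The difference between the kidney libraries also moved with the length of the gene, which was looked at after the values were seen. Across 11047 genes with a kidney mean of at least 1 FPKM, Spearman's rho between exon length and the difference was 0.53, given as a description because genes are not independent replicates. The median difference was -0.15 in genes with under 1 kb of exons, 0.20 from 2 to 4 kb, 0.47 from 4 to 8 kb and 0.67 over 8 kb. Slc12a3, with the largest difference, had the longest exons of the members at 11.1 kb, and Scnn1b the shortest at 2.63 kb. Beside genes of their own length class, 8 of the 9 members were above the upper quartile and Bsnd was within the quartiles. The same rho was -0.34 in small intestine, 0.02 in liver and -0.01 in lung. The part of gene length in the members' differences was not tested.

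**Figure D4:**
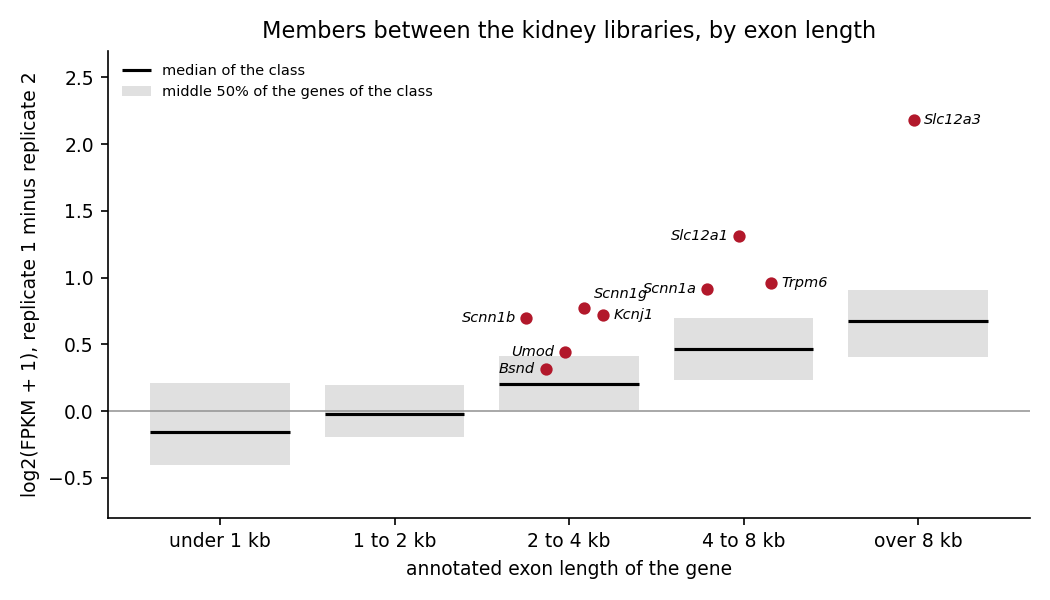
Difference of log2(FPKM + 1) between kidney replicate 1 and replicate 2 for the 9 members (red) by class of annotated exon length; grey boxes span the middle 50% and black lines the median of all genes of the class with a mean of at least 1 FPKM in kidney. The class medians go from -0.15 under 1 kb to 0.67 over 8 kb, and Slc12a3, at 2.18, is farthest from its class.

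Traces of the kidney-high members were read in the other organs. As a share of the kidney mean, Umod was 0.420% in lung replicate 1 and 0.125% in lung replicate 2, on 74 and 28 reads. Slc12a3 was 0.525% and 0.114%, Kcnj1 0.505% and 0.0567% and Slc12a1 0.273% and 0.0716% in the same libraries. Lung replicate 1 was above replicate 2 for all 4. In liver the shares were 0.157% and 0.268% for Umod, 0.135% and 0.274% for Slc12a3, 0.231% and 0.546% for Kcnj1 and 0.194% and 0.155% for Slc12a1. In small intestine these 4 genes lay between 0.0157% and 0.151%. Bsnd gave 2 reads in lung replicate 2, 5 reads in small intestine replicate 1 and none in the other 4 libraries. Of the 7 proximal tubule markers, which belong to another kidney segment, Slc34a1, Slc5a2, Slc22a6 and Slc7a13 had shares of at most 0.439% in these 6 libraries. Slc34a1 was 0.347% and 0.0608% in lung and 0.162% and 0.197% in liver, and Slc7a13 0.337% and 0.0662% in lung and 0.171% and 0.246% in liver. Whether these reads came from cells of the organ named on the label was not tested. The other 3 markers were higher in some organs: Lrp2 at 4.54% and 4.22% in lung, Slc5a12 at 2.31% and 1.25% in lung and 27.0% and 69.6% in small intestine, and Cubn at 50.4% and 82.4% in small intestine.

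**Figure D5:**
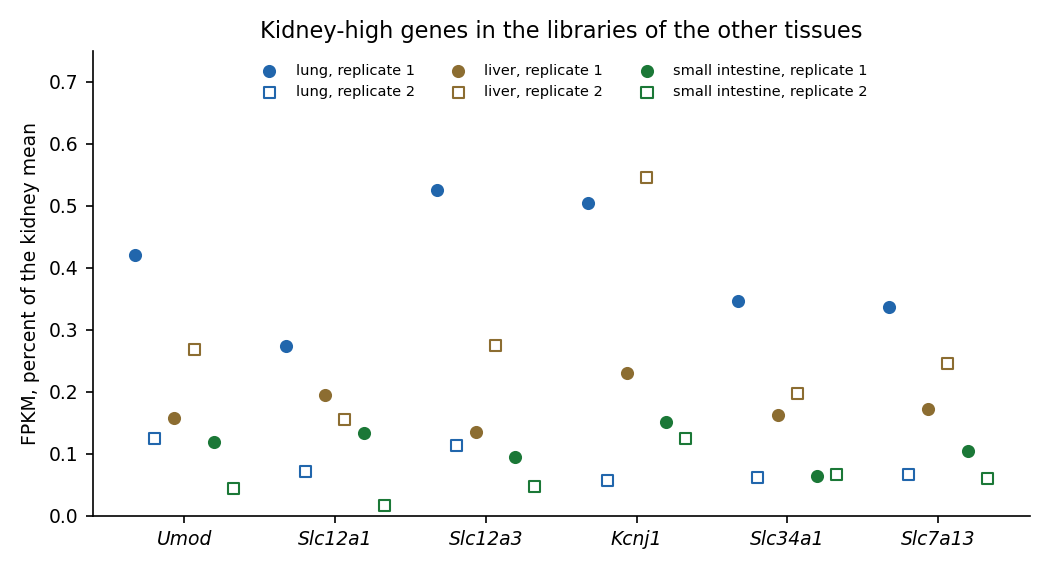
FPKM in the libraries outside kidney as a percent of the kidney mean, for 4 members and for the proximal tubule markers Slc34a1 and Slc7a13; filled circles are replicate 1 and open squares replicate 2. All points lie below 0.6%, and lung replicate 1 lies above lung replicate 2 for each gene.

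The profiles of the 9 members over the 8 libraries fell into the same groups as the tissue contrasts. Pearson's r of log2(FPKM + 1) was between 0.975 and 0.999 among Slc12a1, Slc12a3, Umod, Kcnj1 and Bsnd, between 0.960 and 0.996 among the 3 subunits and Trpm6, and between 0.158 and 0.372 across these groups. The 8 points of each r share their libraries and fall into 4 tissues, so it mainly reflects tissue means and has no test. The genes outside the list with the profiles most like a member are given by name. For Slc12a1 they were Kl, Gm853 and Egf, for Slc12a3 Fut9, 1110019B22Rik and Gm44120, and for Kcnj1 Calb1, Cyp24a1 and Kcnj16. For Umod they were Slc22a12, Acsm2 and Slc34a1, and for Bsnd Gm35281, Gm3716 and Slc6a18, each with r of at least 0.998. Profiles this close were common, with 52 to 119 genes above 0.99 for each of these 5 members.

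The subunits had fewer near neighbours, with 11 genes above 0.99 for Scnn1a, 28 for Scnn1b and 31 for Scnn1g. The nearest to Scnn1g were Irx2, Wwtr1 and Egfl6, and to Scnn1b Atp6v1c2, Irx1 and Fmo2. Irx1 and Irx2, transcription factor genes, read a mean of 7.54 and 3.48 FPKM in kidney, 21.8 and 14.0 in lung and at most 0.0578 in liver and small intestine. For Scnn1a the nearest were Ppfibp1, Fmod and Zfp775, and for Trpm6 Rnf14, Trove2 and Map9, with r between 0.994 and 0.998.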

How the data were processed

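Whole tissue was ground, RNA was isolated with Trizol and polyadenylated RNA was made into libraries. By the paper's methods, the authors selected reads by index with bbduk, mapped them with STAR 2.5.3a under default settings to the Ensembl mouse genome and deposited FPKM values computed by DESeq2 (its fpkm function). The program that counted reads, its use of strand and its treatment of reads with several positions are not given in the sources used here. FPKM lowers every gene of a library in which a few transcripts are very abundant.

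Columns were matched to samples by name, and 0 columns were left unused. Reads were recovered from FPKM and the exon lengths of GENCODE M21, to which 99.3% of symbols matched; in the low range 94.5% to 96.1% of values per library were whole within 0.02 reads. The recovered reads of Trpm6 were not whole, so the exon length behind its FPKM differs from the one used here. Values were tested as log2(FPKM + 1) in 1 fit of all 8 libraries with limma 3.58.1 (eBayes with a trend, R 4.3.3), for the 16328 genes with an FPKM of at least 1 in at least 2 libraries. Benjamini-Hochberg adjustment ran over all of these, and genes were called at an adjusted p below 0.05 and a difference over 1. Single genes were also compared by exact two-sided permutation over libraries. Promoter windows are 250 bases long, except those of Slc12a1, Umod and Slc12a3, which were shortened to 155, 230 and 243 bases. Other values used Python 3.11.15 with scipy 1.17.1.

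The members and gene lists were chosen with earlier results of these data known. Named are all members, from each list up to 4 genes with the largest absolute difference among those called in kidney against the others and any called lower, and for each member the 3 genes of highest Pearson's r. The values of some listed genes are not reported here. Nr3c2, Trpm7 and the proximal tubule markers named singly, other than Slc34a1, were added after their values were seen. Alternatives changed the pseudocount (0.1), the filter, the scaling, the trend, a block and the libraries included, and used limma-voom on the recovered reads.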

Additional observations from a re-analysis of the deposited data

How the results depend on the processing

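Over 15 alternatives the counts of members called in kidney against the others, in lung and in kidney against lung stayed within 1.5 times, apart from median-of-ratios scaling, where 1 member in place of 4 was called lower in kidney than in lung. The count past a difference of 1 between the kidney libraries was run under 3 of them and was 1 in place of 2 with that scaling, and 3 both with a pseudocount of 0.1 and with equal sums without mitochondrial genes. The cause was not tested beyond the shift of the median of all genes given above. Leaving out 1 library at a time gave 6 to 8 members higher in kidney against the others, 4 higher in lung, 3 or 4 lower in kidney than in lung and 36 to 44 list genes higher in kidney.

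Trpm6 in kidney against the others ranged from -0.10 without kidney replicate 1 to 0.86 without kidney replicate 2, and it was called there with a pseudocount of 0.1 (1.49) and with limma-voom on recovered reads (2.72). Scnn1a was called there with equal sums without mitochondrial genes (1.17). Against lung, Trpm6 lost its call with equal sums (-0.59), without kidney replicate 2 (-0.58) and without lung replicate 2 (-0.98).

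In lung against liver and small intestine, members near 0 and not called changed sign. With median-of-ratios scaling Slc12a1 was -0.10, Slc12a3 -0.017, Umod -0.22 and Kcnj1 -0.12. Without lung replicate 1 they were -0.065, -0.015, -0.057 and -0.12 in the same order, and without lung replicate 2 they were 0.18, 0.25, 0.99 and 0.13. Kcnj1 was -0.028 with a pseudocount of 0.1, -0.0037 with equal sums and -0.32 with limma-voom. Bsnd was 0.20 with limma-voom, and ranged from -0.087 without small intestine replicate 2 to 0.041 without small intestine replicate 1.

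The 4 tissues were taken from each mouse, but the replicate numbers were not tied to mice in the sources used here. The deviations of same-numbered libraries correlated at -0.217 to 0.0528 between tissues, so the numbers were not taken as pairs. These correlations cannot show whether libraries shared animals. With the replicate block, 7 members were higher in kidney than in the others, 4 higher in lung, 5 higher and 4 lower in kidney than in lung, and 38 list genes higher in kidney, as without it.

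Depth limits the members with 0 to 3 reads in a library, among them Scnn1b and Scnn1g in liver and small intestine and Trpm6 in liver, whose places in the order of tissues rest on that few reads.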
